A study of Homo sapiens with 3 samples.

Results

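Palbociclib, a small molecule inhibitor of CDK4 and CDK6, the kinases that D-type cyclins activate, was given to HCT116 cells at 1 µM for 24 hours, and their transcript levels were set against those of HCT116 cells left untreated. HCT116 is an established human colon cancer line with a mismatch repair defect. Each condition is 1 RNA-seq library, and the genes compared are all those with a mean of at least 1 CPM, a read count scaled to library size, over the palbociclib, CDK4 siRNA and untreated libraries, which left 12694 of 48162 entries. In the siRNA library the cells had been transfected with a small interfering RNA against CDK4 for 24 hours, and it serves here for that filter and as a level beside single genes. No library of cells given the drug's solvent was analysed here, so untreated cells are the only control, and the labels do not say whether the libraries came from cultures grown apart. Just outside the filter stood AC068138.1 and SEMA3D, whose mean levels were 0.995 and 0.997 CPM, and just inside it FAM86HP, MAGEB1 and TENM3, whose means all rounded to 1.00 CPM.

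CDK4 and CDK6 bind D-type cyclins in the first gap phase of the cell cycle and phosphorylate the retinoblastoma protein RB1 and its relatives RBL1 and RBL2. While RB1 is not phosphorylated it binds activating E2F factors and keeps S phase genes low. RBL1 or RBL2, as part of the DREAM complex, keep cell cycle genes silent, those of mitosis through a short element called the cell cycle homology region. An inhibitor of CDK4 and CDK6 is therefore used to stop dividing cells before DNA replication in tumours that have kept RB1, and it is approved for breast cancer. In the series it was studied beside loss of CDK4 for its bearing on p73 and on death receptor 5.

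Palbociclib-treated cells had a transcript profile that differed widely from that of untreated cells. Many genes of DNA replication, chromosome segregation and recombinational repair were lower. Most genes of sterol synthesis, the FOS and JUN transcription factors, many genes of the integrated stress response, some of the glutathione and thioredoxin systems and 3 of 10 NF-kB feedback inhibitors were higher. Ratios are TMM-scaled CPM of palbociclib over untreated cells, brackets hold 95% intervals that cover counting error only, and there is no replicate, so no p-value is given. A gene is called higher or lower where its log2 ratio was at least 1 in that direction, which is a fold of 2, and its interval excluded 1. Intervals alone lay above 1 for 36.0% of all genes and below 1 for 41.9%, so a count of intervals is to be read against these shares. The log2 ratio is computed with a prior count of 2 reads, which pulls ratios of few reads towards 1. By this rule 1269 genes were higher (10% of those compared) and 1722 were lower (13.6%), in all 23.6%, and the median log2 ratio of all genes was −0.07. The same rule called 1.22% of genes in the CDK4 siRNA library against the same untreated library.

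The calls reached far. In all 241 genes were at least 4-fold higher and 252 at least 4-fold lower. Counting precision rose with the level: the median interval of the log2 ratio was 1.47 wide for genes between 1 and 5 CPM, of which 37.9% were called, and 0.15 wide between 100 and 500 CPM, where 14.7% were called. At 500 CPM or more, 35 genes were higher and 15 lower of 258, with a median log2 ratio of 0.24. The split between directions depends on scaling. With library totals in place of TMM factors the median of all genes moved to −0.27, and the genes higher were 26.0% of the calls, against 42.4% with TMM. Directions of genes with a ratio close to 1 are to be read against that shift.

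**Figure D1:**
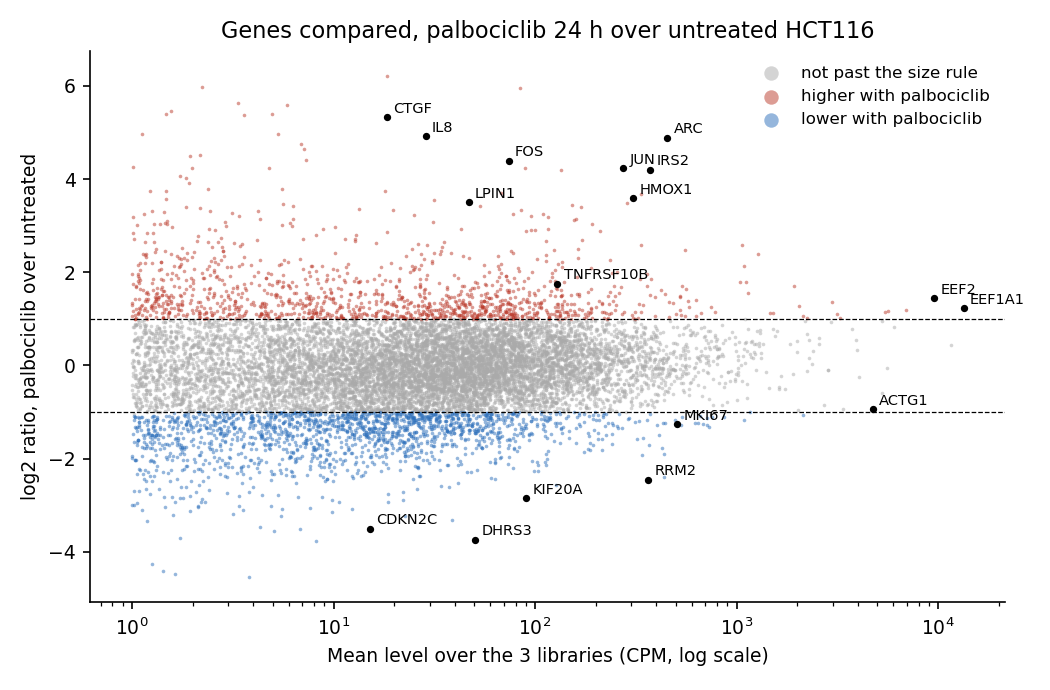
Log2 ratio of palbociclib over untreated cells (vertical axis) against the mean level over the 3 libraries (horizontal axis, CPM, log scale). Each point is 1 of the 12694 entries compared, without those whose symbol was turned into a date. Red marks higher and blue lower by the size rule, and dashed lines mark a log2 ratio of 1 in either direction. EEF1A1 and EEF2 stand furthest to the right among the genes called. The red and blue points beyond the lines are those of the 1269 higher and 1722 lower entries that kept a gene symbol.

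The libraries held 18020870 reads for palbociclib, 18349355 for CDK4 siRNA and 20313597 for untreated cells. The most abundant genes held more of the reads with palbociclib: the top 10 took 9.88%, against 6.23% with siRNA and 6.41% in untreated cells. Epithelial markers were present in both conditions, with EPCAM at 332 CPM with palbociclib and 263 CPM in untreated cells, while the colon differentiation genes KRT20, VIL1, CDH17 and CDX1 had at most 22 reads in any library. Of 7 blood cell markers, PTPRC and CD3E had no reads in any library, and 1, CD14, was above the filter with 52 reads with palbociclib, 3 with siRNA and 0 in untreated cells. Against a floor of 3 reads in the untreated library CD14 was 22.4-fold higher, a figure that leaves out the counting error of its own reads. The fibroblast markers summed to 8.99 CPM with palbociclib and 15.0 CPM in untreated cells, nearly all of it COL1A1, and the 4 endothelial markers with an entry had 16 reads with palbociclib and 10 in untreated cells. The part of any blood cell RNA in other results was not tested.

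The drug's own target genes stayed within 2-fold of the untreated level, and genes of CDK inhibitors moved in both directions. CDK4 was at 87.8 CPM with palbociclib, 53.8 with siRNA and 128 in untreated cells, a palbociclib ratio of 0.686 (0.643 to 0.732). CDK6 had 189 CPM with palbociclib and 112 CPM in untreated cells, a ratio of 1.69 (1.61 to 1.79). CDKN2C, the gene of p18, which blocks both kinases, had 28 reads with palbociclib, 460 with siRNA and 433 in untreated cells and was lower at 0.0837 (0.0549 to 0.123). The pocket protein genes gave ratios of 0.702 for RB1, 0.498 for RBL1 and 0.725 for RBL2, none past the size rule, which RBL1 missed narrowly through the prior count. Of 8 CDK inhibitor genes 2 were higher and 2 lower. CDKN1A, CDKN1B and CDKN2A, the genes of p21, p27 and p16, were at 1.65 (1.61 to 1.7), 0.8 (0.722 to 0.886) and 1.6 (1.49 to 1.71), none past the rule, and CDKN2D was at 0.941 (0.768 to 1.15). CDKN1C, the gene of p57, had 237 CPM with palbociclib against 31.6 CPM in untreated cells, and CDKN2B, the gene of p15, had 32.5 against 8.95 CPM. Both were higher, by ratios of 7.5 (6.9 to 8.15) and 3.63 (3.07 to 4.31). The other lower one besides CDKN2C, CDKN3, which encodes a phosphatase that acts on CDK1 and CDK2, had 7.33 CPM against 38.4 CPM in untreated cells, a ratio of 0.191 (0.156 to 0.232).

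E2F factors did not move as 1 family. Among the activators E2F1 had 67.6 CPM with palbociclib and 64 CPM in untreated cells, a ratio of 1.06 (0.974 to 1.14), and E2F2 and E2F3 were at 0.522 and 1.49. The atypical repressors E2F7 and E2F8, themselves E2F targets, were lower at 0.413 (0.353 to 0.483) and 0.287 (0.233 to 0.352). E2F6, a repressor that acts without pocket proteins, was higher at 2.71 (2.42 to 3.04), with 57.7 CPM against 21.3 CPM. MYBL2, which joins the MuvB core to activate mitotic genes, was lower at 0.463 (0.44 to 0.487), while FOXM1, which acts after it, was at 0.652.

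Cyclins, kinases and phosphatases split by the phase in which they act. Of 16 genes of the first gap phase and of general function, 2 were lower and 2 higher, and the median log2 ratio was 0.24. CCNE2, one of the cyclins that open S phase, had 1.97 CPM with palbociclib against 10.5 CPM in untreated cells, a ratio of 0.187 (0.125 to 0.272), while its paralog CCNE1 was at 0.685. The other lower member, CDC25A, encodes a phosphatase that activates CDK2 and was at 0.445 (0.404 to 0.489). Both higher members serve transcription: CCNT1, the cyclin of CDK9, at 2.49 (2.36 to 2.64), and CDK7, the kinase of the general factor TFIIH, at 2.13 (1.97 to 2.3), the second of which was short of the rule with total-count scaling. Of 21 regulators of S phase, G2 and mitosis, 12 were lower and none higher, all 21 intervals were below 1, and the median was −1.24. The cyclin A gene CCNA2 had 44.7 CPM with palbociclib, 145 with siRNA and 159 in untreated cells, a ratio of 0.282 (0.259 to 0.305). The mitotic kinase gene PLK1 had 79.8 CPM with palbociclib against 281 CPM in untreated cells, a ratio of 0.284 (0.267 to 0.301). CDC25B, whose phosphatase activates CDK1, was at 0.275 (0.257 to 0.295), as were the cyclin F gene CCNF at 0.266 (0.244 to 0.289) and CDK1 at 0.407 (0.376 to 0.439), while the inhibitory CDK1 kinase WEE1 was at 0.552 (0.511 to 0.597). PLK4, the kinase of centriole duplication, was the member nearest to the untreated level at 0.851 (0.76 to 0.952). In RNA from a whole culture, fewer cells in a phase and fewer transcripts per cell cannot be told apart.

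Promoters of these mitotic genes carry recognisable elements. They are shown because the DREAM complex is known to act through the cell cycle homology region and the activator NF-Y to bind the CCAAT box. In the RefSeq promoter windows, which run from 250 bases before to 50 bases after the annotated start on GRCh38.p14, both strands were searched for the homology region, spelled TTTGAA, and for the CCAAT box, spelled CCAAT. Windows were found for 78 of 92 mitotic genes compared and for 9645 of all 12670 compared entries that carry a gene symbol. The first element was in 51.3% of the mitotic windows against 9.30% of all windows, and the second in 65.4% against 36.6%. The CCAAT box was not particular to mitotic genes. It was in 59.3% of cholesterol synthesis and uptake windows and 58.3% of integrated stress response and amino acid windows. The share was 52.7% for replication, 41.2% for AP-1, immediate early and MAPK feedback, and 16.7% for NF-kB and chemokine genes. Among all genes called it was in 36.45% of higher and 39.1% of lower ones. The windows of PLK1 (chr16:23678639-23678938, plus strand), CCNB2, a mitotic cyclin gene (chr15:59104896-59105195, plus strand), and ESPL1, the gene of separase (chr12:53268049-53268348, plus strand), are printed 5′ to 3′ with both elements in capitals, on either strand.
PLK1: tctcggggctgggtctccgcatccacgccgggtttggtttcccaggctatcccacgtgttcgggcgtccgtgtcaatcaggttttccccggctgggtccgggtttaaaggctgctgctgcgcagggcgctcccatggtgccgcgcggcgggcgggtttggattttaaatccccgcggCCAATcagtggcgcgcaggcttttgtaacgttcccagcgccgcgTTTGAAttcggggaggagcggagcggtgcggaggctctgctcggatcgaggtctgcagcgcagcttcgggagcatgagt
CCNB2: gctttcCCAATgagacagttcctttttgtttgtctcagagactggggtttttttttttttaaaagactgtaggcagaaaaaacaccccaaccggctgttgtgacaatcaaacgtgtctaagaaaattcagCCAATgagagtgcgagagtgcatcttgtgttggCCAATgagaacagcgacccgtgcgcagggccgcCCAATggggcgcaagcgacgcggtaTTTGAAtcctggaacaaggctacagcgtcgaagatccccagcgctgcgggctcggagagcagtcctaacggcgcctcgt
ESPL1: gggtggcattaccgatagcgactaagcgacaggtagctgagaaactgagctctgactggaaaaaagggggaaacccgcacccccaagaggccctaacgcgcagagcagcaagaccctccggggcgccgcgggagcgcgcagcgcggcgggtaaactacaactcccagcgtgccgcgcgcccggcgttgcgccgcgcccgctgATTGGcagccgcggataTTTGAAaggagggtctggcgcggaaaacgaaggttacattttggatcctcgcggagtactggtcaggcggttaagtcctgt
In each of them a CCAAT box stands a short way upstream of the homology region. Of the 40 mitotic genes with the homology region in the window 24 were lower, with a median log2 ratio of −1.22, and of the 38 without it 18 were lower, with a median of −0.90. Across all windows the median was −0.22 for genes with the element and −0.07 for those without. A match is a description of the letters in a window and not a measured binding site.

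Structures that move chromosomes were lower in parts. The kinesin motors separated by task: 11 of 13 mitotic kinesins were lower, all 13 intervals were below 1 and the median log2 ratio was −1.29, whereas 1 of 15 transport kinesins and light chains was lower and their median was 0.08. KIF20A, a motor of cytokinesis, had 18.2 CPM with palbociclib, 122 with siRNA and 131 in untreated cells, a ratio of 0.139 (0.123 to 0.157). KIF11, the motor that separates spindle poles, had 23.3 CPM against 90.9 CPM, a ratio of 0.257 (0.229 to 0.287). KIF5B, a cargo motor of all cells, was at 1.07 (1.04 to 1.11).

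At the kinetochore, the plate that ties chromosomes to the spindle, 9 of 15 outer members were lower with a median of −1.24, and at the inner centromere 8 of 16 were lower with a median of −1.03. Within the NDC80 complex, whose 4 subunits bind microtubules together, the ratios were unequal. SPC24 had 53 reads with palbociclib and 665 in untreated cells, a ratio of 0.103 (0.0764 to 0.136), and SPC25 had 87 and 722, a ratio of 0.156 (0.123 to 0.195). NDC80 itself was at 0.317 (0.271 to 0.369) and NUF2 at 0.541 (0.458 to 0.636), which was short of the size rule. CENPW and CENPM of the inner network were at 0.205 and 0.218, HJURP, the chaperone that deposits the centromeric histone, at 0.237 (0.208 to 0.268), and the centromeric histone CENPA at 0.475 (0.397 to 0.567). MIS12 stood apart from its neighbours at 1.5 (1.29 to 1.73).

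The anaphase machinery showed the same unevenness. ESPL1, the protease that opens cohesin, had 28 CPM with palbociclib and 135 CPM in untreated cells, a ratio of 0.208 (0.188 to 0.229), and its inhibitor PTTG1, securin, was at 0.379 (0.339 to 0.423). CDC20, the mitotic activator of the anaphase promoting complex, was lower at 0.356 (0.342 to 0.371), while FZR1, its activator in the first gap phase, was at 1.18 (1.12 to 1.25). Of 18 genes of this complex and its partners 6 were lower, and of 10 checkpoint genes 4 were lower, led by KNTC1 at 0.283 (0.238 to 0.334). All 8 condensin genes had intervals below 1 and 3 were lower, with ratios between 0.412 and 0.744. Cohesin, which acts outside mitosis as well, had 2 of 14 members lower and 1 higher, around a median of −0.08 on the log2 scale, the lower ones being SGOL2, the guardian of centromeric cohesin, at 0.249 (0.215 to 0.288) and the S phase acetyltransferase ESCO2 at 0.309 (0.267 to 0.356). Its interphase paralog ESCO1 was higher at 2.01 (1.78 to 2.26), although not with total-count scaling.

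DNA replication genes were lower at several stages and unevenly within complexes. Of 9 genes of origin recognition and of helicase loading or its control 2 were lower. They were GMNN, whose protein inhibits loading, at 0.361 (0.32 to 0.405), and ORC3 at 0.483 (0.414 to 0.562). The loaders CDC6 and CDT1 were at 0.853 and 1.05, and ORC6 was at 1.39 (1.25 to 1.54). The 6 subunits of the MCM2 to MCM7 helicase, which act as a ring in equal number, had unequal ratios. MCM4 had 145 CPM with palbociclib against 433 CPM in untreated cells, a ratio of 0.336 (0.321 to 0.351), MCM7 was at 0.456 (0.443 to 0.469), and MCM5 had 349 against 350.2 CPM, a ratio of 0.996 (0.962 to 1.03). Among factors that activate the helicase and travel with the fork 7 of 13 were lower, with a median log2 ratio of −1.13, including GINS2 at 0.312 (0.277 to 0.35), GINS1 at 0.344 (0.307 to 0.385), the checkpoint mediator CLSPN at 0.343 (0.306 to 0.382) and CDC45 at 0.44 (0.382 to 0.505).

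Polymerase genes were lower too, with 9 of 22 polymerase, primase, clamp and single-strand binding genes lower and 21 intervals below 1. The primase partner POLA2 had 6.22 CPM with palbociclib and 34.2 CPM in untreated cells, a ratio of 0.182 (0.146 to 0.224), and the leading-strand polymerase subunit POLE2 4.07 against 19.7 CPM, a ratio of 0.207 (0.157 to 0.269). POLD2, a subunit of the lagging-strand polymerase, was at 1.01 (0.976 to 1.05), and the clamp PCNA at 0.618 (0.591 to 0.645). The 2 usual spellings of the E2F site were searched in the same promoter windows of 55 of 63 replication genes compared. TTTCCCGC was in 21.8% of them against 2.64% of all windows, and TTTGGCGC in 12.7% against 1.13%. The windows of GINS2 (chr16:85688905-85689204, minus strand) and POLE2 (chr14:49688165-49688464, minus strand) each hold 1 such match, in capitals, on the strand opposite to the gene.
GINS2: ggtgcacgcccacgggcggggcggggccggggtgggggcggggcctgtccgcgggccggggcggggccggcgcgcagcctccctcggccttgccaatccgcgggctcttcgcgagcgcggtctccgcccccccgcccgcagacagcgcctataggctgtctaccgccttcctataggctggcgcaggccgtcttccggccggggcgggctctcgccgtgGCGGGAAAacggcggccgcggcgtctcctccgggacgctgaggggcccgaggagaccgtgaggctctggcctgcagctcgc
POLE2: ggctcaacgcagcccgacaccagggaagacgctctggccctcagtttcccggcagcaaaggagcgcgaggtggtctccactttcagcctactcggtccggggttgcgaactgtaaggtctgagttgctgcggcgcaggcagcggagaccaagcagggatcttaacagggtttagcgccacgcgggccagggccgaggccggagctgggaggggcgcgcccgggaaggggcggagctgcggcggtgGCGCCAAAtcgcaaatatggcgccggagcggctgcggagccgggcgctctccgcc
The 12 replication genes with TTTCCCGC had 6 lower members and a median log2 ratio of −1.01, and the 43 without it had 17 and −0.86. For TTTGGCGC the medians were nearly the same. The 7 genes with it had 3 lower members and a median of −0.89, and the 48 without it had 20 and −0.91.

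Supply of DNA building blocks and of chromatin was lower in part. Of 12 genes of deoxynucleotide supply 6 were lower with a median log2 ratio of −0.91. RRM2, the S phase subunit of ribonucleotide reductase, had 90.7 CPM with palbociclib, 506 with siRNA and 496 in untreated cells, a ratio of 0.183 (0.173 to 0.193), whereas its paralog RRM2B was at 0.689 (0.639 to 0.743). The CTP synthases were lower, CTPS1 at 0.363 (0.329 to 0.4) and CTPS2 at 0.435 (0.361 to 0.522). Of 13 purine synthesis genes 2 were lower, a share near the 13.6% of all genes, and PPAT, the first step of that pathway, was at 1.24 (1.16 to 1.32).

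Several histone variant and chaperone genes were lower. Of 9 histone variants 4 were lower: H1F0, the linker histone H1.0, at 0.268 (0.256 to 0.28), H2AFX, which marks DNA breaks when phosphorylated, at 0.292 (0.279 to 0.304), H2AFY2 at 0.303 (0.272 to 0.337) and H2AFZ at 0.394 (0.375 to 0.413). All 11 chaperones and chromatin assembly genes had intervals below 1 and 4 were lower, among them UHRF1, which guides maintenance methylation, at 0.358 (0.34 to 0.377) and ASF1B at 0.36 (0.33 to 0.392). Of the DNA methyltransferases DNMT3B was lower at 0.373 (0.33 to 0.421), and DNMT1 and DNMT3A were at 0.654 (0.632 to 0.678) and 0.741 (0.586 to 0.934). Of 38 replication-dependent histone genes only 8 passed the level filter, and 3 of these were higher, including HIST1H4C with 62 reads with palbociclib and 14 in untreated cells. Their messages lack a poly(A) tail and their copies are near identical, so these few reads are uncertain. The filter takes in the palbociclib library, and genes this low can pass it through being high there. The count of 3 is therefore not read as a result. With no filter on low counts, 5 of the 31 that had reads were higher and 2 lower, with a median log2 ratio of 0.44.

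**Figure D2:**
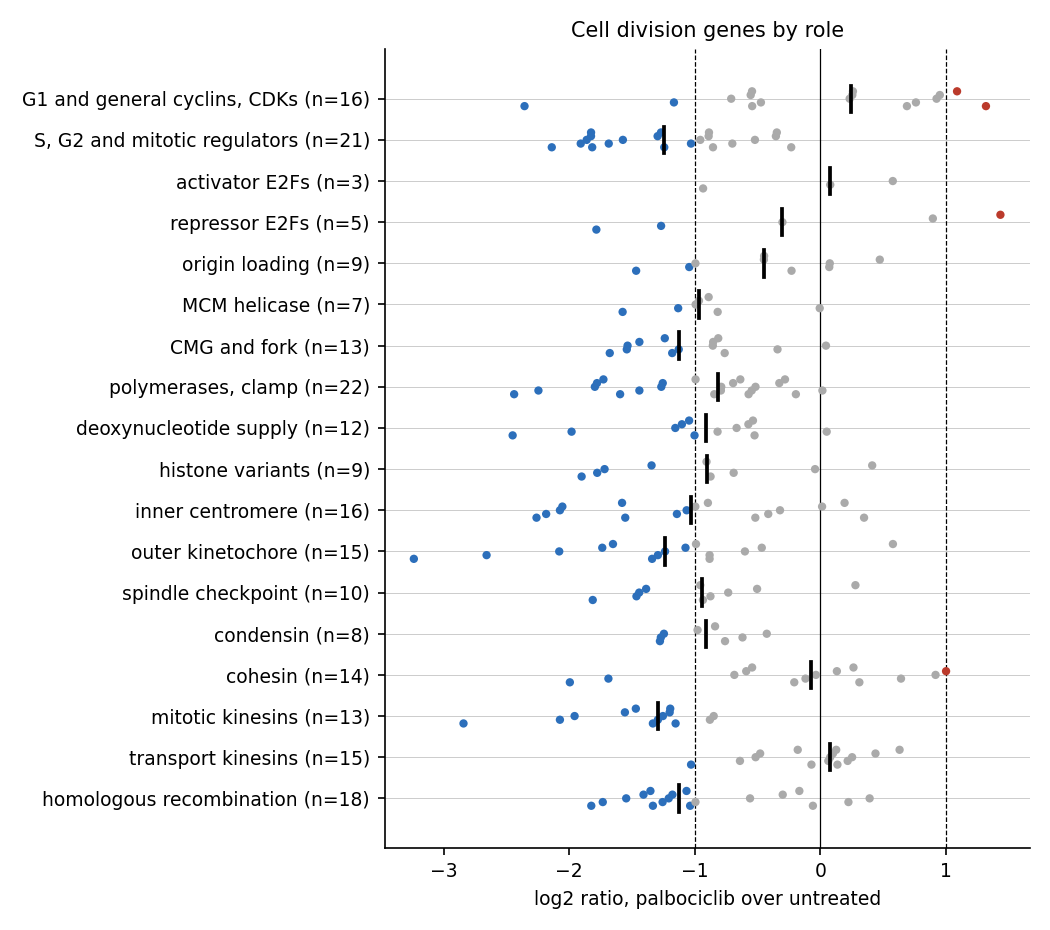
Log2 ratio of palbociclib over untreated cells (horizontal axis) for the members of 18 roles in cell division (rows), each point 1 gene, red where higher and blue where lower by the size rule, and the black bar the median of the row. The mitotic kinesins have a median of −1.29 and the transport kinesins of 0.08, and dashed lines mark a log2 ratio of 1 in either direction.

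Among repair genes homologous recombination, which mends breaks from the sister copy after replication, had the largest share of lower members, 11 of 18, with a median log2 ratio of −1.12. BRCA2, which loads the recombinase onto DNA, had 9.49 CPM with palbociclib against 22.8 CPM in untreated cells, a ratio of 0.416 (0.345 to 0.5), and EXO1, an end-resecting nuclease, was at 0.3 (0.261 to 0.343). In the complex that first binds breaks NBN was lower at 0.487 (0.443 to 0.534), and RAD50 and MRE11A were at 1.31 (1.21 to 1.42) and 1.17 (0.909 to 1.5). Of 13 Fanconi genes 3 were lower, of 20 genes of excision repair and end joining 4 were lower, among them PARP1 at 0.411 (0.396 to 0.427), and of 7 mismatch repair genes 3 were lower, among them MSH3 and MSH6 at 0.409 (0.194 to 0.799) and 0.482 (0.446 to 0.52). In base excision repair the scaffold XRCC1 was at 0.381 (0.32 to 0.451) and the glycosylases MUTYH and OGG1 at 0.481 (0.41 to 0.563) and 0.487 (0.388 to 0.607).

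Sterol synthesis genes were higher along most of the pathway. Cells make cholesterol from acetyl-CoA by way of mevalonate, squalene and lanosterol, and the factor SREBF2 switches on the enzymes of this pathway when sterol in the endoplasmic reticulum is low. Of 21 synthesis genes 13 were higher and none lower, against 10% higher of all genes, and the median log2 ratio was 1.58. At the entry HMGCS1 had 469 CPM with palbociclib, 50.6 with siRNA and 56.9 in untreated cells, a ratio of 8.24 (7.75 to 8.76). The step before it, ACAT2, was at 1.18 (1.05 to 1.33).

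Along the isoprenoid steps MVK, MVD, FDPS and IDI1 were higher with ratios between 2.52 and 4.25, and PMVK, which acts between MVK and MVD, was at 0.642 (0.551 to 0.747). FDPS has processed pseudogenes, and its 194 reads with palbociclib and 75 in untreated cells are uncertain. From squalene on, SQLE, the oxygen-requiring epoxidase, had 399 CPM against 93.9 CPM, a ratio of 4.25 (4.04 to 4.47), and LSS, the next cyclase, was at 1.15 (1.06 to 1.24). In the last 10 genes 5 were higher, from DHCR7 at 3.92 (3.78 to 4.06) to MSMO1 at 8.67 (8.09 to 9.3). The sterol 14-reductase step can be carried out by TM7SF2 or LBR, and these were at 0.507 (0.427 to 0.6) and 0.857 (0.806 to 0.91). EBP of the late steps was at 0.786 (0.724 to 0.854).

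Of 7 uptake and transport genes 5 were higher, and of 7 sensors and factors that control the pathway 2 were. Higher in the first set was NPC1, which exports cholesterol from lysosomes, with 152 CPM with palbociclib, 43 with siRNA and 41.5 in untreated cells, a ratio of 3.66 (3.38 to 3.95). STARD4, which carries cholesterol between membranes, was higher at 3.07 (2.71 to 3.49). INSIG1, the sterol-dependent retention protein of the SREBP pathway, had 750.1 against 67.1 CPM, a ratio of 11.2 (10.6 to 11.8), and SREBF2 was itself higher at 3.27 (3.15 to 3.38). SREBF1 was at 1.74 (1.68 to 1.79) and the escort SCAP at 1.32 (1.26 to 1.38). Of 5 LXR receptor and target genes compared 1 was lower and none higher, with 3 intervals above 1, 2 below and a median log2 ratio of 0.35. The lower one, ABCA1, which exports cholesterol, had 6 reads with palbociclib and 31 in untreated cells, a ratio of 0.25 (0.0854 to 0.609).

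Fatty acid genes moved less as a group, with 6 of 17 higher and 1 lower. FASN, fatty acid synthase, was among the most abundant transcripts, with 9005 CPM with palbociclib against 4004 CPM in untreated cells, a ratio of 2.25 (2.23 to 2.27). The desaturase SCD was higher at 3.48 (3.41 to 3.55), and LPIN1, a phosphatidate phosphatase, had 121 against 10.5 CPM, a ratio of 11.5 (10 to 13.3). The acetyl-CoA carboxylases parted, ACACA at 1.25 (1.19 to 1.31) and ACACB, the mitochondrial form, lower at 0.261 (0.183 to 0.365). With total-count scaling FASN and ACSL4, a long-chain acyl-CoA synthetase at 2.21 (2.08 to 2.35), were short of the size rule.

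**Figure D3:**
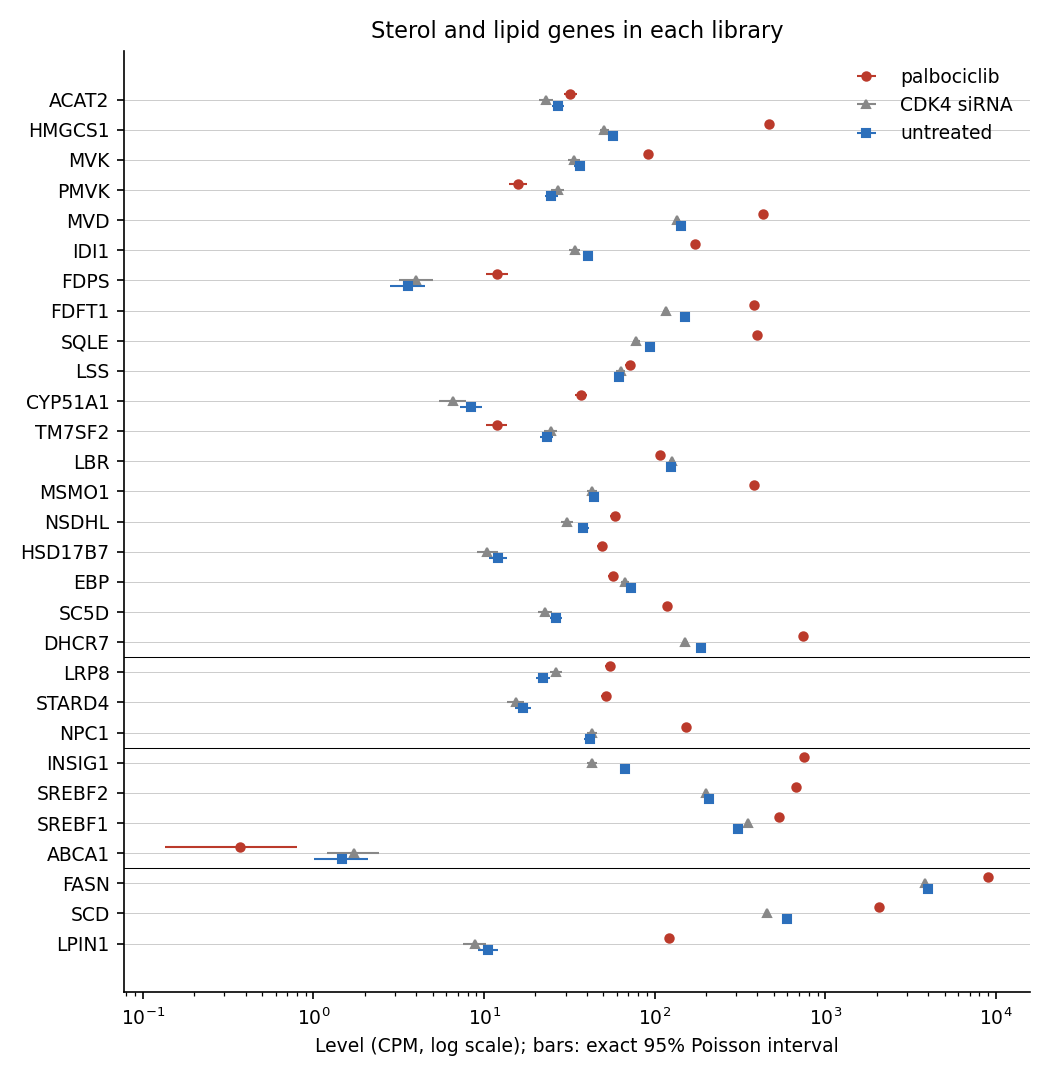
Level in CPM (horizontal axis, log scale) of sterol and lipid genes (rows) in the palbociclib, CDK4 siRNA and untreated libraries, with exact 95% Poisson intervals, which are narrower than the symbol for most genes. Rows run along the synthesis pathway, then uptake, control and efflux, then fatty acids, and INSIG1, MSMO1, HMGCS1 and LPIN1 lie furthest to the right of their untreated level.

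The AP-1 factors, dimers of FOS, JUN and related proteins that answer to MAP kinases and stress, were higher for all 4 FOS and all 3 JUN genes. FOSL2, at 2.02 (1.91 to 2.15), was short of the rule with total-count scaling, under which 9 of 18 AP-1 and ATF genes were higher in place of 11. AP-1 and ATF genes together held 0.472% of the reads with palbociclib and 0.112% of those of untreated cells. FOS had 201 CPM with palbociclib, 11.5 with siRNA and 9.43 in untreated cells, a ratio of 21.3 (18.4 to 24.7), and JUN had 746, 38.4 and 39.4 CPM, a ratio of 18.9 (17.6 to 20.3). JUND, the family member of resting cells, was at 6.02 (5.88 to 6.16). Per length, in the authors' deposited FPKM, JUND led the family with 1152 in palbociclib-treated cells and 219.6 in untreated cells, followed in treated cells by FOSL1 at 326 and JUN at 202, while FOS was at 83.8. The order of levels was therefore not the order of ratios. The small MAF proteins, partners that lack an activation domain, were higher as well, MAFF at 19.1 (16.8 to 21.7), MAFK at 3.8 (3.46 to 4.18) and MAFG at 3.15 (2.97 to 3.35). BATF3 was lower at 0.447 (0.282 to 0.689), from 29 reads with palbociclib and 84 in untreated cells.

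Other immediate early genes mark recent stimulation. Of 10 zinc finger and nuclear receptor genes 7 were higher, among them EGR1 with 706 CPM with palbociclib, 189 with siRNA and 117 in untreated cells, a ratio of 6.02 (5.77 to 6.29), and NR4A1 at 9.11 (8.39 to 9.91). EGR3 and NR4A2 of the same families were at 11.4 (7.82 to 17.3) and 8.5 (7.28 to 9.97), and ZFP36, which shortens the life of AU-rich messages, was at 3.39 (3.09 to 3.72). ARC, known from neuronal activity, reached 1274 CPM with palbociclib against 42.9 CPM in untreated cells, a ratio of 29.7 (27.8 to 31.8). SRF, the serum response factor, was at 2.15 (2.05 to 2.26) and was short of the rule with total-count scaling. IER2 and MCL1, quick-response genes of the same list, were at 1.53 (1.41 to 1.65) and 1.29 (1.24 to 1.35).

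MAP kinase phosphatases, which switch these kinases off, were higher for 6 of 11 genes. DUSP8, DUSP16 and DUSP10, which act mainly on the stress kinases JNK and p38, were higher at 9.58 (8.79 to 10.5), 5.38 (4.7 to 6.17) and 3.35 (2.15 to 5.33). DUSP6, the cytoplasmic ERK phosphatase, had 74.5 CPM with palbociclib against 87.6 CPM in untreated cells, a ratio of 0.851 (0.791 to 0.916), and DUSP5, a nuclear ERK phosphatase, was higher at 3.28 (3.15 to 3.43). DUSP1 was higher at 5.9 (5.17 to 6.75), and DUSP4 passed the rule at 2.19 (2.1 to 2.28) but not with total-count scaling. ERRFI1, an inhibitor of the EGF receptor, was higher at 2.62 (2.55 to 2.69) and ETV4, an ERK-responsive factor, was at 0.561 (0.502 to 0.626).

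The cyclic AMP response element, spelled TGACGTCA, is bound by ATF and CREB proteins and was in 7.84% of the windows of 51 AP-1, immediate early and MAPK feedback genes, that is in 4, against 3.40% of all windows. All 4 were higher. The element was not particular to this group. It was in 10.3% of mitotic windows, among them those of CCNA2 and NDC80, which were lower, and in 5.46% of replication windows. Among all genes called it was in 5.08% of higher and 1.84% of lower ones. The AP-1 site, spelled TGACTCA, was in 1.96% of the windows of the 51 genes against 2.87% of all windows. The windows of MAFF (chr22:38201744-38202043, plus strand) and DUSP8 (chr11:1572222-1572521, minus strand) show it in capitals, once and at 2 places.
MAFF: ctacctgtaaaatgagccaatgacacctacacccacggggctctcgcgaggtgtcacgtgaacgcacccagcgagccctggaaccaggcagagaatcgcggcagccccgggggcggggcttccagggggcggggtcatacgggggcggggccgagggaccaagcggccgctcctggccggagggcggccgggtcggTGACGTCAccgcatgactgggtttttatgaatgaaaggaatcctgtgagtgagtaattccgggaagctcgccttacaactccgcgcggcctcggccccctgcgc
DUSP8: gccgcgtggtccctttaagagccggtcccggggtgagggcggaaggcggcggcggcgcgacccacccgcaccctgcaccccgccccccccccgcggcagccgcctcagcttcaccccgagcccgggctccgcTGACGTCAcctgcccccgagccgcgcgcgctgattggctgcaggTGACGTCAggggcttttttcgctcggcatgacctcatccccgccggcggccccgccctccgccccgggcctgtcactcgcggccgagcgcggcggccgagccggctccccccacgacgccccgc
The element reads the same on both strands, and 20 of the 47 windows without it also belonged to higher genes.

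The EGF family ligand genes HBEGF, AREG and EREG were higher at 4.67 (3.95 to 5.53), 4 (3.65 to 4.39) and 2.28 (2.21 to 2.35), and their receptor EGFR at 2.39 (2.25 to 2.55), while ERBB2 was at 0.707 (0.657 to 0.76). Of 12 Kruppel-like factors 5 were higher, led by KLF6 with 379.7 CPM with palbociclib against 59.1 CPM in untreated cells and by KLF5, a factor of intestinal crypts, with 241 against 46.8 CPM. Their ratios were 6.43 (6.04 to 6.83) and 5.16 (4.81 to 5.54), and KLF9, KLF11 and KLF4 were also higher at 4.13 (3.21 to 5.36), 3.56 (2.98 to 4.27) and 2.51 (2.32 to 2.72). In the MYC network the MAX partners that oppose MYC were higher, MXD1 at 6.72 (5.36 to 8.51), MNT at 3.04 (2.62 to 3.53), MXD4 at 2.43 (2.23 to 2.65) and MXI1 at 2.29 (2.09 to 2.5), beside MYC itself at 2.22 (2.16 to 2.27). MXD3, the partner expressed in S phase, was lower at 0.348 (0.275 to 0.438). EREG, MXI1 and MYC were short of the rule with total-count scaling.

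NF-kB genes of the non-canonical arm led their family. RELB had 237 CPM with palbociclib, 25.6 with siRNA and 25.5 in untreated cells, a ratio of 9.27 (8.46 to 10.2), and NFKB2, the gene of its partner p100, was at 3.98 (3.8 to 4.16). RELA, NFKB1 and REL of the canonical arm had intervals above 1 at 1.92, 1.87 and 1.86, short of the rule. Of 10 feedback inhibitors 3 were higher: NFKBIA at 3.26 (2.95 to 3.62), TNFAIP3 at 3.35 (2.49 to 4.55) and TNIP1 at 2.66 (2.46 to 2.88). For the chemokine gene IL8 there were 1297 reads with palbociclib, 70 with siRNA and 53 in untreated cells, and it was higher at 31.7 (24.1 to 42.5). CXCL3, which shares the receptor of IL8, was higher at 9.49 (4.03 to 27.2) from 44 reads with palbociclib and 6 in untreated cells, and so was CXCL1 at 6.04 (3.2 to 12.4) from 56 and 12 reads. The filter takes in the palbociclib library, so genes this low can pass it through being high there, and no count over the 10 members that passed is read as a result. Of 23 chemokine and cytokine genes listed 13 were under the filter, CXCL10 and CCL2 among them with no reads. With no filter on low counts, 9 of the 19 that had reads were higher, and the median log2 ratio was 0.72. IL11 and LIF, cytokines of the IL6 family, were higher at 4.42 (2.78 to 7.29) and 2.23 (2.02 to 2.46), and LIF was short of the rule with total-count scaling. IL6, IL1B and TNF had at most 4 reads in any library. The NF-kB site, spelled as GGG, any 2 bases and TTTCC, was in 7 of 18 windows of this group, or 38.9%, against 2.01% of all windows, among them NFKBIA (chr14:35404700-35404999, minus strand) and TNFAIP3 (chr6:137867009-137867308, plus strand). Their matches, in capitals, lie on the strand opposite to the gene, at 1 place in NFKBIA and at 2 in TNFAIP3.
NFKBIA: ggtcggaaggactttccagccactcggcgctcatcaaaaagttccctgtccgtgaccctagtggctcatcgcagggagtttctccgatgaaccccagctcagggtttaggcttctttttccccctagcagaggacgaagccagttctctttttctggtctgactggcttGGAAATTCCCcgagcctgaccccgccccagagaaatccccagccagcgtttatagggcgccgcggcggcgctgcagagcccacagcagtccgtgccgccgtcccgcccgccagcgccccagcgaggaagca
TNFAIP3: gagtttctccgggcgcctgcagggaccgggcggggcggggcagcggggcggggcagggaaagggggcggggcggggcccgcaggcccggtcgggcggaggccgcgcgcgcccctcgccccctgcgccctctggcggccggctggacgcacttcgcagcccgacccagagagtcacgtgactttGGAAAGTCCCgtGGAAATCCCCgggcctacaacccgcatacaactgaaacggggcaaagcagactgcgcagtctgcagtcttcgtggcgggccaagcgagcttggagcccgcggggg
Of the 7 genes with the site 4 were higher, and of the 11 without it 5. CXCL1 and CXCL3, low genes of the kind described above, are among those with the site, so this split is not read as a result.

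The integrated stress response, in which phosphorylated eIF2 slows translation and favours ATF4, was higher at most of its factors and targets. Of 14 targets listed 3 were under the filter and the other 11 were higher, with ratios between 2.06 and 8.88. ATF4 had 996 CPM with palbociclib, 377 with siRNA and 318 in untreated cells, a ratio of 3.13 (3.05 to 3.23). ATF3 had 364 CPM with palbociclib against 19.9 CPM in untreated cells, a ratio of 18.3 (16.6 to 20.3), and DDIT3, the gene of CHOP, had 157 reads against 43, a ratio of 4.72 (3.35 to 6.78). ATF5 was lower at 0.318 (0.263 to 0.382). Of the 4 eIF2 kinases EIF2AK3, the kinase PERK of the endoplasmic reticulum, was higher at 2.91 (2.49 to 3.42), and EIF2AK4, the kinase GCN2 of amino acid shortage, was at 0.683 (0.635 to 0.735). Targets of endoplasmic reticulum stress were among those higher, DNAJB9 at 4.2 (3.65 to 4.84), HERPUD1 at 3.75 (3.45 to 4.09) and XBP1 at 2.06 (1.93 to 2.2), while the chaperone CRELD2 was lower at 0.302 (0.262 to 0.348) and HSP90B1 was at 0.911 (0.891 to 0.931). HSPA5, the main chaperone of that compartment, was higher at 2.17 (2.13 to 2.21). XBP1 and HSPA5 were short of the rule with total-count scaling.

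Among amino acid genes the higher ones were mainly exchangers and antiporters. Of 8 of these 4 were higher, against 10% of all genes, with a median log2 ratio of 0.87. Of 9 sodium-coupled and lysosomal carriers 1 was higher and 1 lower, with a median of 0.25. SLC7A11, the cystine antiporter, had 268 CPM with palbociclib, 44.2 with siRNA and 35 in untreated cells, a ratio of 7.65 (7.07 to 8.28), and its heavy chain SLC3A2 was at 2.17 (2.12 to 2.23). SLC7A5, the leucine exchanger that shares that chain, had 3304 against 1632 CPM, a ratio of 2.02 (2 to 2.05). The glutamine and alanine carrier SLC38A2 was higher at 3.46 (3.39 to 3.53), and SLC16A10, a carrier of aromatic amino acids, was lower at 0.246 (0.165 to 0.356). SLC3A2 and SLC7A5 did not pass the rule with total-count scaling.

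Of 18 enzymes of serine, glycine, proline and asparagine synthesis 2 were higher, asparagine synthetase ASNS at 2.86 (2.72 to 3.02) and the cysteine-forming CTH at 2.96 (2.38 to 3.69), and 2 were lower, the cytosolic folate enzymes SHMT1 at 0.377 (0.336 to 0.423) and MTHFD1 at 0.421 (0.396 to 0.447). Their mitochondrial counterparts SHMT2 and MTHFD2 were at 1.08 (1.04 to 1.11) and 1.72 (1.66 to 1.79). The 2 higher and 2 lower of 18 enzymes were near the shares of all genes, 10% and 13.6%, and their median log2 ratio was 0.21. Among 20 cytosolic tRNA synthetases, which charge tRNAs, CARS was higher at 2.77 (2.57 to 2.99) and FARSB lower at 0.45 (0.419 to 0.483), with a median log2 ratio of −0.07. Of 16 mitochondrial synthetases 4 were lower, with a median of −0.56.

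Antioxidant genes under NRF2, a factor freed when electrophiles modify KEAP1, were higher for several enzymes of glutathione and thioredoxin use and not for all targets. HMOX1, heme oxygenase, had 766 CPM with palbociclib, 89.1 with siRNA and 63.5 in untreated cells, a ratio of 12.1 (11.4 to 12.8). TXNRD1, thioredoxin reductase, had 2788 CPM with palbociclib against 533 CPM in untreated cells, a ratio of 5.23 (5.12 to 5.34). The glutathione synthesis subunits GCLC and GCLM were at 4.91 (4.64 to 5.2) and 2.86 (2.69 to 3.04), sulfiredoxin SRXN1 at 7.4 (6.1 to 9.03) and OSGIN1 at 10.6 (9.87 to 11.4). NQO1, a commonly used NRF2 target, was at 0.983 (0.952 to 1.01), GSR at 0.92 (0.884 to 0.957) and the drug efflux pump ABCC2 lower at 0.42 (0.374 to 0.471). In all 7 of 19 targets were higher and 1 was lower, with a median log2 ratio of 0.54. NFE2L2, the gene of NRF2, was at 1.96 (1.84 to 2.09), and BACH1, a repressor of HMOX1, was higher at 2.55 (2.29 to 2.85).

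Protein folding genes moved in both directions. Of 14 cytosolic heat shock genes 3 were higher, HSPB8 at 2.56 (2.08 to 3.16), its partner BAG3 at 2.08 (2.02 to 2.15) and HSF1, the factor of the heat shock response, at 2.17 (2.08 to 2.25), and HSPB1 was lower at 0.464 (0.452 to 0.476). HSPA1A and HSPA1B, the inducible HSP70 genes, are near identical copies, so their ratios of 1.66 and 1.93 are uncertain. In mitochondria the co-chaperonin HSPE1 had 15.8 CPM with palbociclib against 38.2 CPM in untreated cells and was lower at 0.413 (0.357 to 0.476), while HSPD1, which is transcribed from the same promoter region in the opposite direction, was at 0.73 (0.718 to 0.742). BAG3 and HSF1 were short of the rule with total-count scaling.

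Autophagy genes were higher at several steps while lysosomal enzymes were not. Of 16 autophagy genes 6 were higher: the membrane-bound ATG8 proteins GABARAPL1 at 5.14 (4.59 to 5.76) and MAP1LC3B at 4.33 (4.08 to 4.6), the starting kinase ULK1 at 3 (2.78 to 3.25), the cargo receptor SQSTM1 at 2.81 (2.73 to 2.9), BECN1 at 2.12 (1.95 to 2.3) and the lysosomal factor TFE3 at 3.12 (2.79 to 3.49). TFEB, the relative of TFE3, was at 0.593 (0.456 to 0.767). Of 16 lysosomal proteins 1 was higher, NEU1 at 2.09 (1.87 to 2.34), and 1 lower, and of 13 subunits of the proton pump V-ATPase none was called, the ratios lying between 0.56 and 1.95. NEU1 and BECN1 were short of the rule with total-count scaling.

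**Figure D4:**
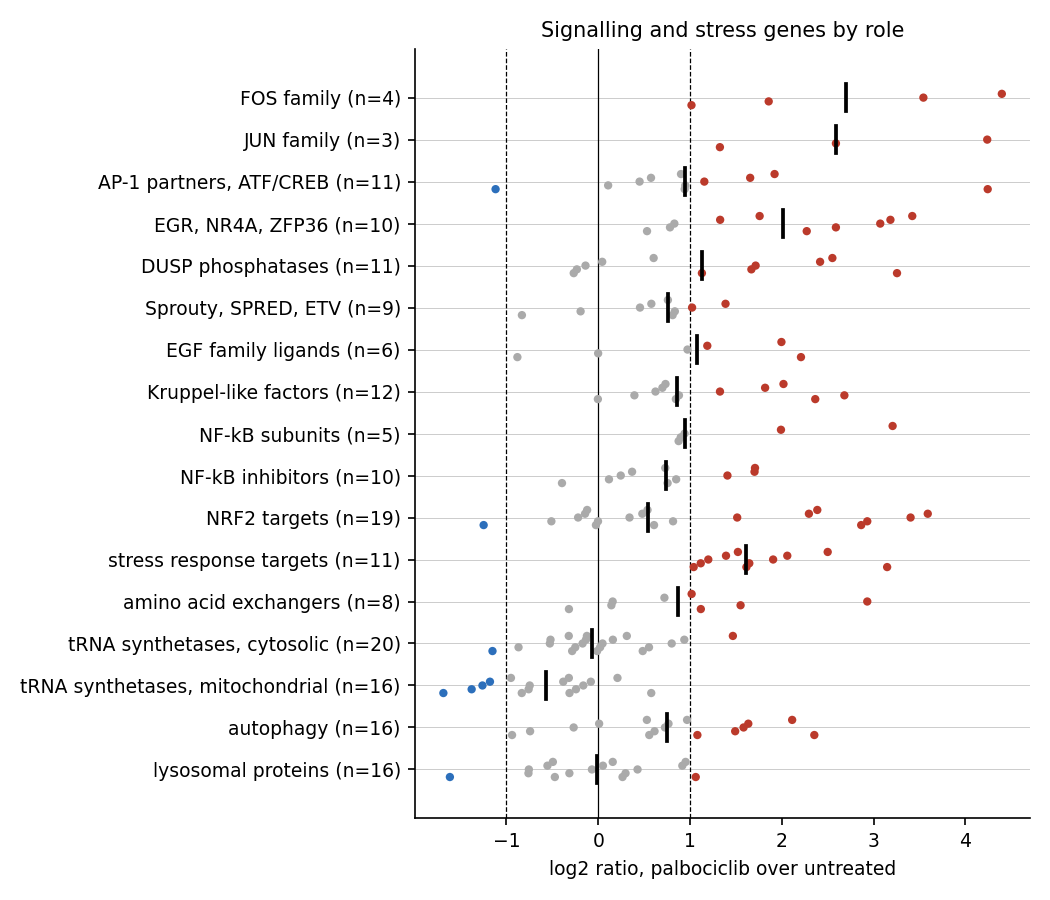
Log2 ratio of palbociclib over untreated cells (horizontal axis) for the members of 17 roles in signalling, stress, amino acid use and autophagy (rows), each point 1 gene, red where higher and blue where lower by the size rule, with the black bar at the median. The 11 stress response targets compared lie beyond the dashed line at a log2 ratio of 1, and the cytosolic tRNA synthetases centre at −0.07.

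Among the genes of the study's question TNFRSF10B, the gene of death receptor 5, had 212 CPM with palbociclib, 112 with siRNA and 62.7 in untreated cells, a ratio of 3.38 (3.17 to 3.61). TNFRSF10A, the gene of death receptor 4, was higher at 2.89 (2.66 to 3.15). TNFRSF10D, a decoy receptor for the same ligand TRAIL that does not signal death, had 275, 48.3 and 49.1 CPM, a ratio of 5.6 (5.24 to 6), and the decoy TNFRSF10C was at 0.923 (0.704 to 1.21). The ligand gene TNFSF10 had 4 reads with palbociclib and none in the other libraries. TP73 was lower with 400 reads with palbociclib, 1243 with siRNA and 1157 in untreated cells, a ratio of 0.447 (0.398 to 0.502). MKI67, a marker of dividing cells, had 257 CPM with palbociclib, 654 with siRNA and 612 in untreated cells and was lower at 0.419 (0.405 to 0.434). Downstream of the receptors BIRC3, an NF-kB-dependent ubiquitin ligase, had 814 reads against 103, a ratio of 10.2 (8.32 to 12.7), TRAF1 was higher at 5.71 (3.01 to 11.7) and the executioner caspase CASP6 lower at 0.381 (0.306 to 0.471). The interval of TRAF1 is wide because it rests on few reads. Of 18 adaptor, caspase and inhibitor genes 3 were higher and 1 lower, against 10% and 13.6% of all genes. Their median log2 ratio was −0.38, with 5 intervals above 1 and 9 below.

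Arrest and death genes listed as p53 targets did not move together. Of 17 arrest and repair genes 3 were higher and 1 lower, and of 10 death genes 4 were higher and none lower, with median log2 ratios of 0.34 and 0.91. Over all genes 10% were higher and 13.6% lower. With total-count scaling 6 of these 27 genes were higher and 4 lower. MDM2, a ubiquitin ligase, was at 1.54 (1.45 to 1.63), BAX at 0.675 (0.625 to 0.729), FDXR at 0.546 (0.509 to 0.584) and the translesion polymerase POLH was lower at 0.35 (0.298 to 0.411). The BH3-only genes PMAIP1, BBC3, BMF and HRK, whose proteins bind and block survival proteins, were higher, at 7.55 (6.91 to 8.25), 3.52 (3.28 to 3.79), 2.67 (1.4 to 5.33) and 2.54 (1.83 to 3.56), and BCL2L11, the gene of BIM, was at 1.59 (1.41 to 1.79). Of 11 effector and BH3-only genes only those 4 were called, against 10% higher of all genes, and the median log2 ratio was 0.05. At a mean of at least 5 CPM 2 of the BCL2 family were higher. The count was also 2 where the interval bound nearest to 1 had to reach 2-fold. The pore-forming BAK1 was at 0.974 (0.88 to 1.08), and the survival gene BCL2 was lower at 0.443 (0.297 to 0.649) from 37 reads with palbociclib and 108 in untreated cells. The stress genes GADD45A, GADD45B and GADD45G were higher: GADD45A at 4.7 (4.41 to 5.01), GADD45B at 10.9 (9.54 to 12.4) and GADD45G, with 246 reads against 8, at 39.8 (19.9 to 93.2). The other member of that list, GADD45GIP1, named for its binding to GADD45 proteins and also a mitochondrial ribosome component, was lower at 0.451 (0.414 to 0.49).

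Genes that answer to the Hippo and TGF-beta pathways were mixed. Among 9 YAP and TEAD pathway factors the kinases LATS2 and LATS1, which restrain YAP, were higher at 4.43 (4.06 to 4.84) and 2.26 (2.01 to 2.56), and TEAD2 was at 0.519 (0.433 to 0.62). Of 12 targets 5 were higher, among them AMOTL2 at 6.42 (5.96 to 6.93), NT5E at 2.73 (2.51 to 2.98) and CTGF with 847 reads with palbociclib, 36 with siRNA and 25 in untreated cells, while AXL and F3 were at 0.766 (0.696 to 0.843) and 0.736 (0.616 to 0.877). In the TGF-beta and BMP list PMEPA1, a TGF-beta feedback gene, had 329 reads against 18, a ratio of 23.6 (14.7 to 40.4), and the inhibitor SMAD7 was higher at 2.7 (2.21 to 3.3). The BMP targets ID1, ID3 and SMAD6 were lower at 0.227 (0.208 to 0.248), 0.38 (0.339 to 0.425) and 0.21 (0.104 to 0.389), and the ligand BMP4 was at 0.546 (0.519 to 0.574). Wnt targets were near the background, with 1 of 14 higher, DKK1 at 2.12 (2.02 to 2.22), and 1 lower, SP5 at 0.464 (0.336 to 0.634), and AXIN2 at 1.05 (0.928 to 1.2). LATS1 and DKK1 were short of the rule with total-count scaling.

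The nuclear and the mitochondrial genome both encode the respiratory chain. All 13 mitochondrially encoded mRNAs had intervals above 1 and 6 were higher, the share of reads being 6.53% with palbociclib, 3.85% with siRNA and 4.02% in untreated cells. MT-ND4 of complex I had 11010.5 CPM with palbociclib against 4844 CPM in untreated cells, a ratio of 2.27 (2.26 to 2.29), and MT-CO1 of complex IV had 14548 against 10679.6 CPM, a ratio of 1.36 (1.35 to 1.37). With total-count scaling 2 of the 13 passed the rule, MT-CYB and MT-ATP8, whose TMM ratios were 2.59 (2.56 to 2.62) and 3.27 (2.82 to 3.81), and MT-ND4 did not. Of 70 nuclear genes of the chain 62 had intervals below 1, against 41.9% of all genes, and 10 were lower. By complex the lower genes were 7 of 34 in complex I, none of 4 in complex II, 1 of 8 in complex III, 1 of 10 in complex IV and 1 of 14 in ATP synthase, a share near or below the 13.6% of all genes except for complex I. NDUFB3 of complex I had 9.67 against 39.8 CPM, a ratio of 0.243 (0.204 to 0.289), and ATP5G1, 1 of 3 genes for the same rotor subunit, 31 against 129 CPM, a ratio of 0.241 (0.219 to 0.265), while its sister genes ATP5G2 and ATP5G3 were at 0.746 (0.695 to 0.801) and 0.531 (0.503 to 0.561).

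Few genes of either ribosome passed the rule, and their intervals lay mostly on opposite sides of 1. Of 72 mitochondrial ribosomal protein genes 12 were lower, against 13.6% of all genes, and of 77 cytosolic ones 3 were higher, against 10% of all genes. Of 45 proteins of the large mitochondrial subunit 11 were lower and 38 intervals were below 1, with a median log2 ratio of −0.69, and of 27 of the small subunit 1 was lower, with a median of −0.37. MRPL40 had 11.4 CPM with palbociclib against 32 CPM in untreated cells, a ratio of 0.356 (0.301 to 0.42), and MRPL10 was at 1.4 (1.33 to 1.48). Of the cytosolic genes 65 had intervals above 1, against 36.0% of all genes, with median log2 ratios of 0.44 for the large and 0.38 for the small subunit. The 3 that passed the rule belong to the large subunit, among them RPL13A and RPL30 at 2.09 (2.06 to 2.12) and 2.08 (1.97 to 2.19), and none of the 3 did with total-count scaling. Translation elongation factors EEF1A1 and EEF2 were higher, with 22263 CPM with palbociclib against 9479 CPM in untreated cells for EEF1A1 and 16602 against 6063 CPM for EEF2, ratios of 2.35 (2.34 to 2.36) and 2.74 (2.72 to 2.76). These and ribosomal protein genes have many processed pseudogenes that can take up reads. None of 40 nucleolar biogenesis factors and none of 31 proteasome genes was called, with ratios between 0.56 and 1.94 and between 0.546 and 1.81.

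RNA processing genes showed opposite members. Among 12 SR splicing factors 4 were lower, SRSF1 with 161 CPM with palbociclib against 471 CPM in untreated cells, a ratio of 0.341 (0.327 to 0.356), TRA2B at 0.363 (0.342 to 0.385), TRA2A at 0.372 (0.335 to 0.412) and SRSF7 at 0.425 (0.396 to 0.455). Of the CLK kinases that phosphorylate SR proteins 3 were higher, CLK1 at 6.33 (5.54 to 7.25), CLK4 at 4.59 (3.73 to 5.7) and CLK3 at 3.04 (2.82 to 3.27), and CLK2 was at 1.31 (1.16 to 1.49). HNRNPD, which binds AU-rich messages, had 116 against 613 CPM, a ratio of 0.189 (0.18 to 0.198), and HNRNPA2B1 was lower at 0.444 (0.434 to 0.454). Of 16 host transcripts of small nucleolar RNAs 7 were higher, from SNHG5 at 2.2 (2.01 to 2.41) to EPB41L4A-AS1 at 4.16 (3.61 to 4.81), and DANCR was at 0.523 (0.473 to 0.577). Many of these hosts are known to be degraded once translated, and SNHG5, SNHG1 and SNHG6 were short of the rule with total-count scaling. The nuclear RNA MALAT1 had 13502 reads with palbociclib, 2211 with siRNA and 1355 in untreated cells, and the part of RNA quality in this was not tested.

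**Figure D5:**
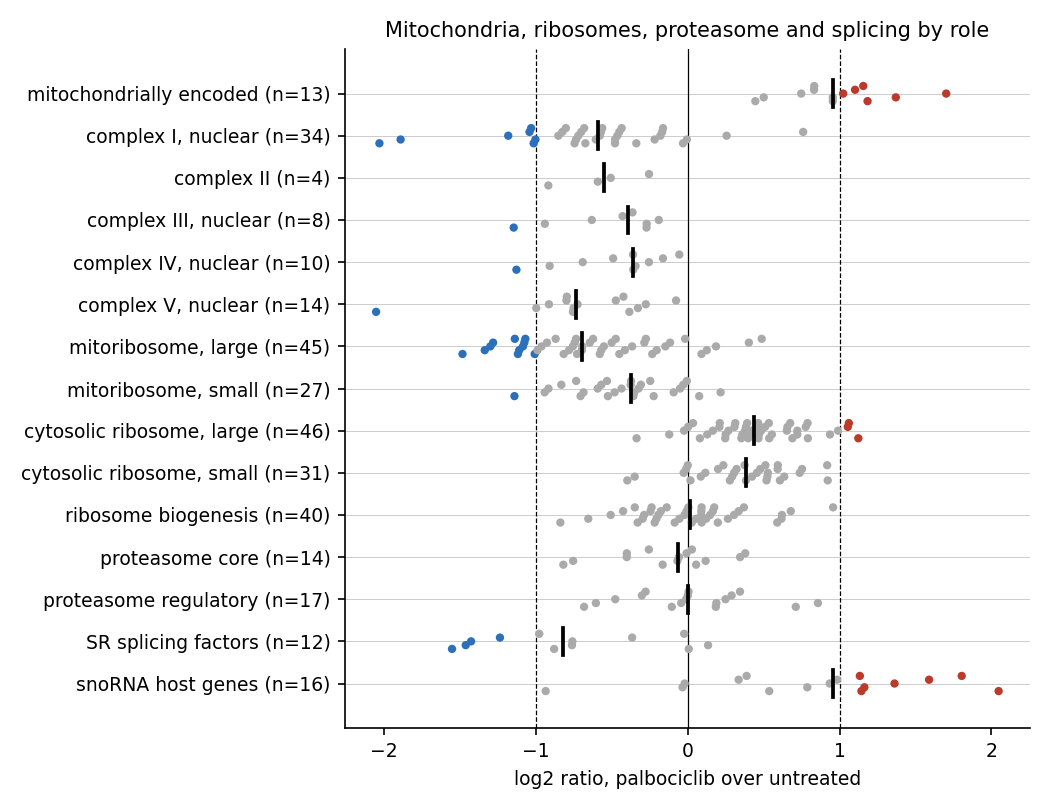
Log2 ratio of palbociclib over untreated cells (horizontal axis) for the members of 15 roles in mitochondria, ribosomes, the proteasome and RNA processing (rows), each point 1 gene, red where higher and blue where lower by the size rule, with the black bar at the median. Mitochondrially encoded mRNAs centre at 0.96 and the large mitochondrial ribosome subunit at −0.69, and no nucleolar or proteasome gene lies beyond the dashed lines at a log2 ratio of 1.

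Some genes by which cells answer interferon were lower, and genes of antigen presentation moved unevenly. Of 19 interferon-induced genes that passed the filter 8 were lower and 0 higher, and their median log2 ratio was −0.94. For the whole interferon list, which also holds signalling factors, the median was −0.53, and it was −0.40 with no filter on low counts. Lower members were ISG15 with 36.1 CPM with palbociclib against 112 CPM in untreated cells, a ratio of 0.323 (0.295 to 0.354), OAS3 at 0.354 (0.319 to 0.393), and PARP9 and HERC6 at 0.263 (0.177 to 0.383) and 0.243 (0.156 to 0.366), whereas ISG20 and the RNA sensor gene DDX58 were at 1.43 (0.982 to 2.09) and 1.14 (0.937 to 1.38). Of 16 genes of MHC class I presentation 3 were lower, NLRC5, the activator of class I genes, with 24 reads against 153, a ratio of 0.203 (0.126 to 0.313), the immunoproteasome subunit PSMB9 at 0.383 (0.244 to 0.584) and the loading chaperone CALR at 0.498 (0.487 to 0.509). The class I chain HLA-B and its partner B2M were at 1.22 (1.15 to 1.3) and 0.946 (0.904 to 0.989). Of 12 ligands of immune cells ULBP1, which is seen by the activating receptor NKG2D, was higher at 3.17 (2.54 to 3.97), PVR at 2.61 (2.47 to 2.76) and CD47, a signal against phagocytosis, lower at 0.491 (0.422 to 0.571), and CD274, the gene of PD-L1, was under the level filter with 8 reads with palbociclib and 21 in untreated cells. The other 2 members called were RAET1L, higher at 2.83 (1.53 to 5.48), and RAET1E, lower at 0.431 (0.242 to 0.736), ligands of the same receptor as ULBP1. With the size factors of DESeq2, CALR and CD47 were short of the rule.

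Among the most abundant genes, several of the cytoskeleton had less of the reads. The largest loss in level was that of gamma actin ACTG1, with 2893 CPM with palbociclib against 5508 CPM in untreated cells, a ratio of 0.525 (0.52 to 0.531), followed by HSP90AA1 at 0.664 (0.658 to 0.67), ACTB at 0.524 (0.517 to 0.53), the keratin KRT8 at 0.556 (0.548 to 0.563) and PTMA, the gene of prothymosin alpha, at 0.48 (0.473 to 0.488), of which PTMA alone passed the rule. Tubulin genes parted, TUBB4B being lower at 0.412 (0.401 to 0.424) and TUBA1A and TUBB3, forms typical of neurons, higher at 3.96 (3.65 to 4.31) and 3.1 (1.96 to 5). KRT19 and KRT18 were at 1.68 (1.65 to 1.71) and 0.712 (0.683 to 0.742), and the junction gene CLDN4 was higher at 2.48 (2.37 to 2.59). In glycolysis 2 of 20 genes were lower, against 13.6% of all genes, and the median log2 ratio was −0.11. The lower ones were TPI1 at 0.401 (0.39 to 0.412) and the lactate exporter SLC16A3 at 0.422 (0.409 to 0.436), while GAPDH was at 0.935 (0.924 to 0.946). The glucose-responsive arrestin genes ARRDC4 and ARRDC2 were higher at 4.46 (3.9 to 5.12) and 3.3 (3.04 to 3.59), and VEGFA was the furthest of 14 hypoxia targets at 3.45 (3.19 to 3.73).

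Outside these lists, the highest named genes with a mean of at least 5 CPM included IRS2, an adaptor of the insulin receptor, with 1006 CPM with palbociclib, 57.9 with siRNA and 54.5 in untreated cells, a ratio of 18.5 (17.4 to 19.6). BHLHE40, a clock-linked repressor, had 221, 14 and 21.8 CPM, a ratio of 10.1 (9.2 to 11.2), and the cytokine CLCF1 was at 10.5 (8.09 to 13.8). FOXE3, RASD1, SDCBP2, KRTAP2-3 and ACTA2 rested on fewer reads, with 266, 314, 312, 782 and 232 with palbociclib against 5, 13, 14, 74 and 25 in untreated cells. The unnamed transcripts RP3-410C9.1 and RP11-818F20.5 were at 63.2 (50.7 to 79.9) and 15.1 (9.58 to 25.2). At the low end the retinal reductase DHRS3 had 5.05 CPM with palbociclib against 68.6 CPM in untreated cells, a ratio of 0.0737 (0.0582 to 0.0921), and the related reductase DHRS2 was at 0.114 (0.0784 to 0.16). METTL7B, ZNF488, LZTS1, CNTLN, C1QL4, FPGT and ADORA1, the gene of an adenosine receptor, had between 10 and 23 reads with palbociclib and between 176 and 281 in untreated cells. PSRC1, a spindle protein gene, was at 0.0983 (0.0777 to 0.123).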

How the data were processed

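The aligner and the counting strand were not given in the sources used here. The submitters' processing notes name HTSeq 0.6.1, DESeq and the hg19 build, without their roles. The authors deposited 1 table of raw read counts per gene symbol and 1 table of FPKM (read counts per kilobase of gene, scaled to each library's total) for 3 libraries. Of 48162 entries 29 are symbols turned into dates by a spreadsheet, with 0.148% of the palbociclib reads and 0.196% of the untreated reads; they stayed in the table.

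TMM factors over the 3 libraries came from edgeR 4.0.16 (R 4.3.3). Ratios are of TMM-scaled CPM, with exact conditional 95% intervals for 2 Poisson counts, and a gene was called at a log2 ratio of at least 1 in size (prior count 2) with an interval that excludes 1. Libraries are 1 per group, so no count test was run and no p-value is given, and intervals and floors of 3 counts cover counting error only. The calling steps were tested on simulated counts. Members and gene lists were chosen with earlier results of these data known. Named are the study's own genes, members of each list among the furthest and those whose role is described, the 10 highest and 10 lowest genes outside the lists at a mean of at least 5 CPM, and the 10 largest gains and losses in CPM.

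Promoter windows are those of RefSeq on GRCh38.p14, matched by symbol, and no other coordinates are given because the counts rest on hg19. Antisense and overlapping genes, histone and ribosomal protein copies and processed pseudogenes can share reads. Other scalings, filters, prior counts, the FPKM table, a gene length trend and a stricter rule were tried. Some genes of the lists are counted in them but not reported here.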

Additional observations from a re-analysis of the deposited data

How the results depend on the processing

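None of the called genes that are listed or named changed direction under an alternative, but the number of calls depended on the settings. Without a filter on low counts 2076 genes were higher, against 1269 with it. With the deposited FPKM values, 809 genes were higher, and with a rule that asked the interval bound nearest to 1 to reach 2-fold 788 were higher and 954 lower, against 1722 lower by the rule used. Other alternatives kept both counts within 1.5 times, total-count scaling giving 852 higher and 2420 lower. Genes higher made 42.4% of the calls by the rule used, 26.0% with total-count scaling and 26.1% with FPKM, and 34.5% with total-count scaling after the reads of mitochondrial, ribosomal protein, EEF1A1, EEF2 and FASN genes were left out, an alternative chosen after the data were seen. Of 414 called genes that are listed or named, 374 kept their call with total-count scaling, 408 with the size factors of DESeq2, 404 with a prior count of 8, 370 with FPKM, 392 after a length trend was subtracted and 347 under the stricter interval rule. Among genes named in the results, ESCO1, MSH3, OGG1 and RAET1E were short of the rule with the prior count of 8, CENPA, ESCO1, FOSL2, MUTYH, SLC7A5, HSPB1, CALR and PTMA after the length trend was subtracted, and ABCA1, BMF and the genes lost with total-count scaling in FPKM. The cause of these shifts was not tested. The median log2 ratio of genes of MHC class I, Wnt targets, colon identity, heat shock, immune ligands and nucleolar factors lay within the shift of 0.2 between scalings and changed sign with it. No paired analysis was possible because each group is 1 library and the labels give no replicate numbers, and for the same reason no library could be left out. Precision was limited by counts: between 1 and 5 CPM the median log2 interval was 1.47 wide.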

Other observations

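Classes of transcript, with members of the gene lists included, differed in their median. Classes were matched by symbol or synonym, and MT-CO2, a mitochondrially encoded mRNA at 1.78, was thereby placed among the pseudogenes. Of 148 entries annotated as pseudogenes 39 were higher and 14 lower with palbociclib relative to untreated cells, with a median log2 ratio of 0.43, and of 155 long noncoding RNAs 30 were higher and 19 lower, with a median of 0.04. Protein-coding genes, 11560 in number, had 9.01% higher and 13.6% lower and a median of −0.09. Among all entries compared, 366 whose symbol begins with ZNF, mostly zinc finger factors of the KRAB type in the human genome, had 15.0% higher and 4.37% lower, with a median of 0.34.

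Transcript length went with the ratio at the short end. The 106 entries under 500 bases had a median log2 ratio of 0.40, with 21 higher and 9 lower, the 1989 between 1000 and 2000 bases had a median of −0.21, and the 710 of 8000 bases or more had a median of 0.05. The entries under 500 bases also had few reads, with a median of 120 over both libraries.

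Of the entries compared 4 had no reads in untreated cells and 4 had none with palbociclib. PRR18 had 106 reads with palbociclib, 3 with siRNA and none in untreated cells, which is 45.7-fold higher against a floor of 3 reads in the untreated library. Figures against the floor leave out the counting error of the other library and are not bounds. RNU12, a small RNA of the minor spliceosome, had 74, 2 and 0 reads, 31.9-fold higher against that floor. RP11-372K14.2 had 70, 2 and 0 reads, 30.2-fold higher against it, and the remaining one was CD14. Without reads in the palbociclib library were EBF2, a transcription factor gene, ZNF503-AS1, AP000251.2 and MSH5, with 52, 42, 37 and 51 reads with siRNA and 47, 45, 40 and 20 in untreated cells. With a floor of 3 reads in the palbociclib library their ratios were 0.0826, 0.0862, 0.0970 and 0.194.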
